A study of Sus scrofa with 15 samples.

Results

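The S100 proteins described here were 7 genes with a row in the liver count table, S100A8, S100A12, ENSSSCG00000006588, S100A4, S100A6, S100A10 and S100A11, out of 31908 rows in all. They were chosen from a list drawn up with the levels and fold changes of LPS against control in these same libraries known, where LPS is lipopolysaccharide. The values of the 7 in that comparison are therefore given as a description, with no p-value for any of the 7, and the number of them called is set only beside the share of all genes called. All 7 passed the filter on low counts, which 12774 rows passed. S100A8, S100A12 and ENSSSCG00000006588 passed it only with their LPS libraries, where they are high. S100A8, for example, had 2 to 4 counts per control library. That they were tested thus depended on the LPS group, and nothing is read from it.

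Livers came from male Duroc x Large White x Landrace piglets in the growing stage, with no age stated in the labels or methods. The LPS group received 80 ug/kg LPS, a component of the outer membrane of Gram-negative bacteria, into the peritoneum, and the control (CON) group sterile saline, and tissue was collected 4 h later according to the methods. Polyadenylated RNA was sonicated, and the counts are from the input fraction kept aside before immunoprecipitation of RNA bearing N6-methyladenosine, with 3 libraries per group. The immunoprecipitated fraction was not analysed here.

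S100 proteins are small EF-hand proteins that bind calcium and mostly work as dimers. S100A8 and S100A12 are abundant in the cytosol of neutrophils and monocytes, from which they can be released as alarmins that signal through Toll-like receptor 4 and the receptor AGER. S100A10 is the partner of annexin A2 at the plasma membrane, and S100A4, S100A6 and S100A11 are found in many cell types, where they bind annexins and cytoskeletal proteins.

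All 7 genes were on chromosome 4 in the coordinates of the count table, whose genome build neither the labels nor the methods state for pig, and they formed 3 positional groups. S100A4 (ENSSSCG00000006578, 96088201 to 96091156) and S100A6 (ENSSSCG00000021084, 96098283 to 96099685), both on the plus strand, were 7.13 kb apart. S100A8 (ENSSSCG00000006590, 96209551 to 96210602, plus strand), S100A12 (ENSSSCG00000032857, 96225693 to 96227137, plus strand) and ENSSSCG00000006588 (96236113 to 96239285, minus strand) were consecutive rows, with gaps of 15.09 and 8.98 kb, and are called the S100A8 cluster below. S100A11 (ENSSSCG00000006610, 97233499 to 97243423) and S100A10 (ENSSSCG00000006612, 97261815 to 97272513), both on the plus strand, lay 994.21 kb further on. None of the 7 shared exon bases with another row. No source used here pairs ENSSSCG00000006588 with a symbol, so it is called by its identifier. In the RefSeq gene table of pig, S100A9 is the neighbour of S100A12 on the side away from S100A8, and S100A9 had no row under that symbol. How reads matching more than one S100 gene were counted is not stated in the labels or methods.

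Library totals were 5927348 to 10351491 counts in CON and 4348478 to 19967417 in LPS. LPS replicate 3 was the deepest library, with a scaling factor of 0.735 against 0.979 to 1.11 in the others. LPS replicate 2 correlated more closely with the 3 CON libraries (r of 0.923 to 0.945 across genes, log scale) than with the other LPS libraries (0.852 and 0.907), so its values are given separately for the S100 genes. Which piglet gave each library is not stated, and any p-value measures only the spread between these libraries.

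The S100A8 cluster was low in CON and higher in every LPS library. Levels are CPM, a gene's counts per 1000000 counts of its library after scaling by the trimmed mean of M-values (TMM). S100A8 stood at 0.358, 0.312 and 0.396 CPM in CON (4, 2 and 4 counts in replicates 1, 2 and 3) and at 14.2, 5.07 and 25.7 CPM in LPS (65, 31 and 376 counts in the same order of replicates). The groups did not overlap, and the lowest LPS library, replicate 2, was 14.3 times the CON mean. The means were 0.355 ± 0.0416 and 15.0 ± 10.3 CPM (SD, n = 3), and the fitted difference was 5.34 on the log2 scale (SE 0.69). With only 10 counts in the CON group, the library-scaled ratio of summed counts was 51.6, and its exact 95% interval, which covers counting error only, ran from 27.8 to 108.

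S100A12, a ligand of AGER, was the cluster gene with most reads in LPS and the one whose libraries differed most. It stood at 5.27, 0.781 and 3.76 CPM in CON and at 45.8, 18.3 and 153 CPM in LPS. LPS replicate 3 alone held 2242 of the 2564 LPS counts, and CON replicate 2 held 5 of the 102 CON counts. The groups did not overlap, with means of 3.27 ± 2.29 and 72.4 ± 71.2 CPM (SD, n = 3) and a log2 difference of 4.43 (SE 0.88). The SE was larger than that of S100A8.

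ENSSSCG00000006588 stood at 1.34, 0.781 and 0.593 CPM in CON and at 39.5, 12.1 and 35.6 CPM in LPS. Its LPS libraries did not overlap the CON libraries, and LPS replicate 2 was again the lowest of the LPS group. The means were 0.905 ± 0.389 and 29.1 ± 14.8 CPM (SD, n = 3), with a log2 difference of 4.96 (SE 0.58). Unlike S100A8 and S100A12, which were highest in LPS replicate 3, it was highest in LPS replicate 1.

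**Figure D1:**
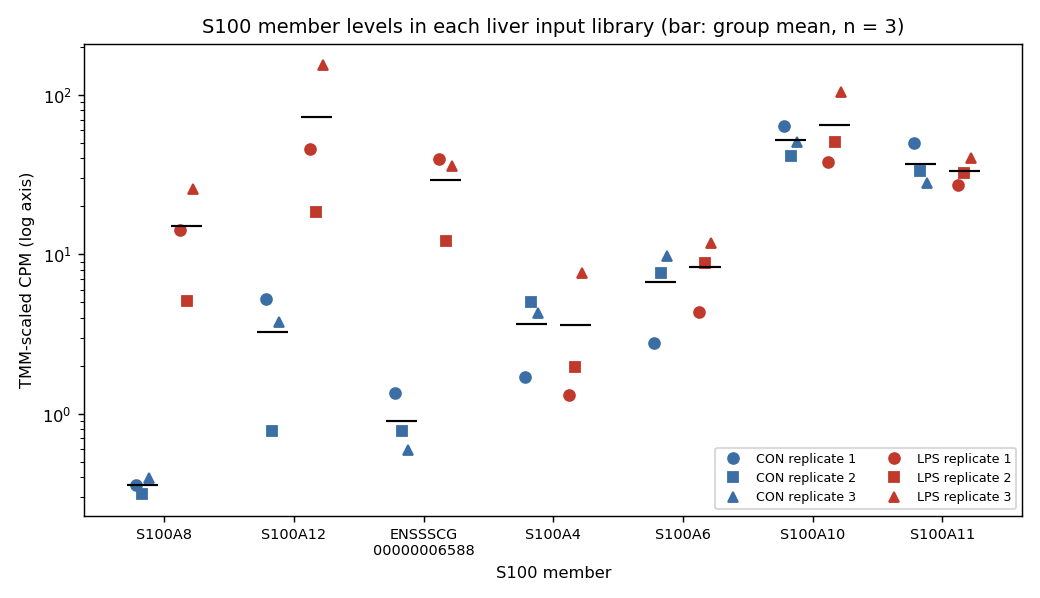
TMM-scaled CPM (log axis) of the 7 S100 genes in each of the 3 CON (blue) and 3 LPS (red) libraries, with the marker shape giving the replicate and the black bar the group mean. The LPS points of S100A8, S100A12 and ENSSSCG00000006588 all lie above their CON points, from 5.07 against 0.396 CPM for S100A8, whereas the CON and LPS points of the other 4 genes overlap.

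The S100A4 and S100A6 pair was expressed at low levels in both groups. S100A4, a binder of non-muscle myosin, stood at 1.70, 5.00 and 4.25 CPM in CON and at 1.31, 1.96 and 7.58 CPM in LPS. Its LPS group thus held both the lowest and the highest of the 6 libraries, and the log2 difference was 0.08 (SE 0.67). That value rested on LPS replicate 3: without it the log2 difference was -1.10. S100A6, also called calcyclin, stood at 2.77, 7.66 and 9.69 CPM in CON and at 4.36, 8.83 and 11.7 CPM in LPS. The groups overlapped, with a log2 difference of 0.34 (SE 0.53), and in both groups replicate 1 was the lowest library.

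The S100A10 and S100A11 pair had the most reads of the 7 genes in CON. S100A10 stood at 63.7, 41.6 and 50.6 CPM in CON and at 38.2, 50.4 and 104 CPM in LPS. LPS replicate 3 was above every CON library and LPS replicate 1 below every one, and the log2 difference was 0.31 (SE 0.40). S100A11, a binder of annexin A1, stood at 50.1, 33.3 and 28.0 CPM in CON and at 27.0, 32.6 and 40.0 CPM in LPS. The groups overlapped, with a log2 difference of -0.16 (SE 0.33), the only negative one among the 7 genes.

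Across the alternatives to the processing, the log2 difference ranged from 4.69 to 5.76 for S100A8, from 3.25 to 4.93 for S100A12 and from 4.70 to 5.39 for ENSSSCG00000006588. The lowest values of S100A8 and S100A12, 4.69 and 3.25, were those without LPS replicate 3. The ranges of the other 4 genes spanned 0, at -1.10 to 0.45 for S100A4, -0.05 to 0.73 for S100A6, -0.21 to 0.59 for S100A10 and -0.32 to 0.12 for S100A11. The sign for these 4 genes was therefore not stable.

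**Figure D2:**
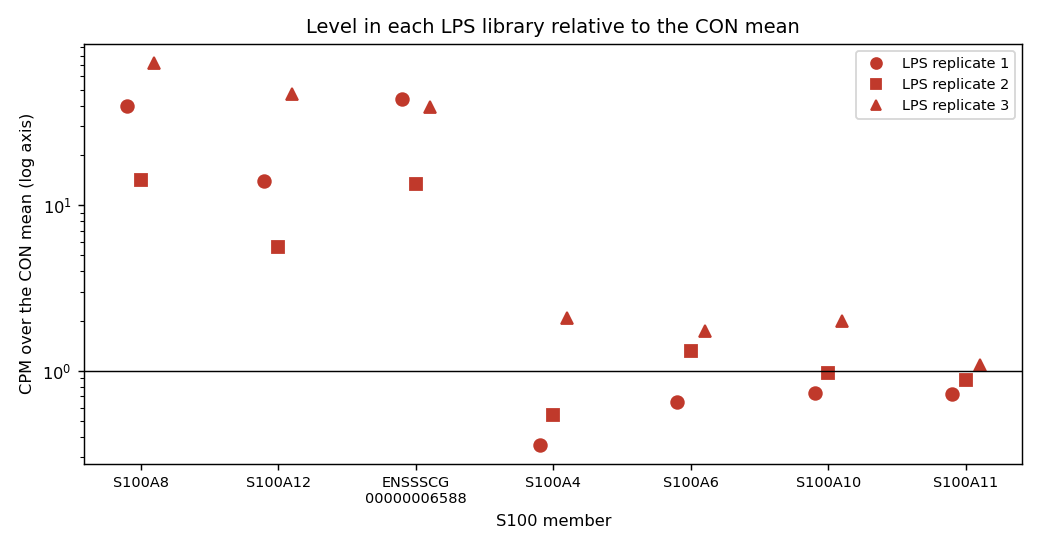
Level of each S100 gene in each LPS library divided by the CON mean (ratio of TMM-scaled CPM, log axis, n = 3 CON libraries), with the line at a ratio of 1. The S100A8 cluster lies between 5.60 and 72.3, while the other 4 genes lie between 0.359 and 2.08 with LPS replicate 3 highest in each.

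A call required an adjusted p under 0.05 and a change above 1.5-fold in edgeR's quasi-likelihood test over all 12774 genes. Of the 7 S100 genes 2 were called higher, S100A8 and ENSSSCG00000006588, beside 0.0548% of all genes tested, and 0 were called lower, beside 0% of all genes. Nothing is read from this count, because the genes were selected on the same contrast. The groups were apart with LPS higher for 3 of the 7 genes, beside 6.52% of all genes tested, and with LPS lower for 0 of the 7, beside 9.8% of all genes.

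The same 2 genes were called with relative log expression factors, beside 0.0626% of all genes, and with total counts as the scaling, beside 0.0861%. S100A12 joined them, for 3 genes of the 7, in DESeq2 (beside 1.85% of all genes), without the filter on low counts (2.28%), with the replicate number as a block (0.329%) and without LPS replicate 2 (3.76%). Leaving out LPS replicate 3 kept S100A8 and ENSSSCG00000006588 called, beside 0.31% of all genes. None of the 7 was called by limma-voom (0.0313%), without LPS replicate 1 (0.00733%), or without CON replicate 1, 2 or 3, where edgeR called 0% of all genes. Requiring at least 10 counts in every library left S100A6, S100A10 and S100A11 tested, with 0 called and 0% of all genes called. Both S100A8 and ENSSSCG00000006588 were thus no longer called when CON replicate 1, 2 or 3 or LPS replicate 1 was left out, and nothing is read from these counts either.

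Levels between genes were compared per kilobase of the deposited exonic length, from 467 bases for S100A12 to 3650 bases for S100A10. In CON the order of CPM per kb was S100A11 (18.7 ± 5.81), S100A10 (14.2 ± 3.05), S100A6 (13.1 ± 6.96), S100A4 (7.06 ± 3.35), S100A12 (7.0 ± 4.89), ENSSSCG00000006588 (1.06 ± 0.453) and S100A8 (0.705 ± 0.0825; SD, n = 3). Only S100A12 and ENSSSCG00000006588, of the neighbours in this order, had ranges that did not overlap. In LPS the order of CPM per kb was S100A12 (155 ± 153), ENSSSCG00000006588 (33.9 ± 17.3), S100A8 (29.7 ± 20.5), S100A10 (17.6 ± 9.66), S100A11 (16.7 ± 3.28), S100A6 (16.3 ± 7.28) and S100A4 (7.0 ± 6.67; SD, n = 3). Every pair of neighbours in the LPS order overlapped.

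The S100A8 cluster made up 20.9%, 5.72% and 14.7% of the summed CPM per kb of the 7 genes in the CON libraries, and 83.0%, 55.3% and 82.9% in the LPS libraries. Every LPS share was above every CON share, which the choice of the genes fixes in part. Within the cluster, ENSSSCG00000006588 kept close to S100A8, at 2.20, 1.47 and 0.881 times its CPM per kb in CON and 1.64, 1.40 and 0.814 times in LPS. S100A12 did so less closely, at 15.9, 2.70 and 10.3 times the CPM per kb of S100A8 in CON and 3.49, 3.90 and 6.44 times in LPS. These CON ratios rest on 2 to 4 counts of S100A8 per library. The ratio of S100A10 to S100A11 per kb overlapped between the groups, at 0.692, 0.678 and 0.983 in CON and 0.767, 0.841 and 1.42 in LPS.

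The S100A8 cluster also ranked higher within the LPS libraries than within the CON libraries. By CPM among all 31908 rows, S100A12 ranked from 9620 to 13500 in the CON libraries and from 910 to 5460 in the LPS libraries. S100A8 ranked from 14900 to 15400 in CON and from 4600 to 9540 in LPS.

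Little else was counted around these genes. From the start of S100A4 to the end of S100A10 the table held 38 rows over 1184.3 kb. The 7 S100 genes were the 7 rows that passed the filter, those of the S100A8 cluster only with their LPS libraries. Of the other 31 rows, 22 had 0 counts in all libraries, and none had more than 5 counts over the 6 libraries. Between ENSSSCG00000006588 and S100A11 lay 27 rows, of which 0 were tested, PGLYRP3 and PGLYRP4 of the peptidoglycan recognition proteins included. S100A5, which lies between S100A4 and S100A6, had no counts outside LPS replicate 3, where it stood at 0.0683 CPM.

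**Figure D3:**
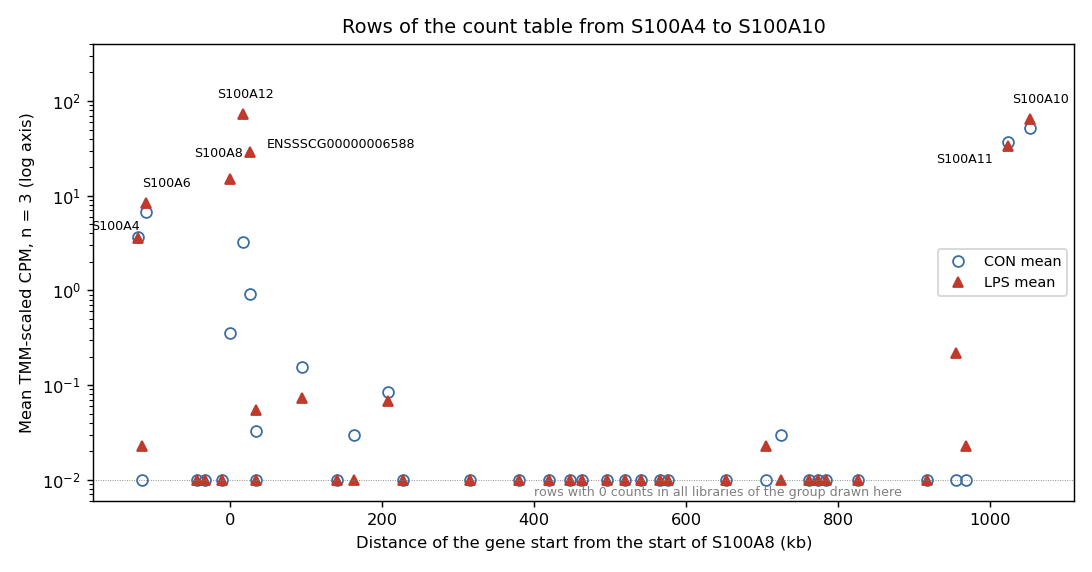
Mean TMM-scaled CPM (log axis, n = 3 libraries) in CON (open blue circles) and LPS (red triangles) of the 38 rows from S100A4 to S100A10, against the distance of each gene's start from the start of S100A8 in kb, with rows at 0 counts drawn on the dotted line. The 7 S100 genes stand above the other 31 rows, of which none had more than 5 counts in all, and the circles and triangles are far apart at the S100A8 cluster and close at the flanking pairs.

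Of 13 other S100 family genes, 6 had a row and 1, S100A1, passed the filter. S100A1, known from striated muscle, stood at 77.0, 64.8 and 85.2 CPM in CON and at 118, 110 and 74.4 CPM in LPS. The groups overlapped, and the log2 difference of 0.41 (SE 0.31) was not called (edgeR quasi-likelihood test with Benjamini-Hochberg adjustment, adjusted p = 0.627). S100A1 shared exon bases with 1 other row. S100A3, S100G and S100Z reached at most 0.436, 0.683 and 0.297 CPM in any library, and S100A14, which shares exon bases with 1 other row, had 0 counts in all libraries. S100A2, S100A7, S100A13, S100A16, S100B and S100P had no row under those symbols.

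The genes whose profile over the 6 libraries was most like that of S100A8 were found by the root mean square difference of centred log2(CPM + 0.5). CHI3L2, a chitinase-like protein, and LCN2, a lipocalin that binds bacterial siderophores, both differed from S100A8 by 0.31. SOD2, the mitochondrial superoxide dismutase, followed at 0.32, TNC, the matrix protein tenascin C, at 0.42 and ADAMTS8, a secreted metalloprotease, at 0.47. CHI3L2 had 1, 0 and 1 counts in CON and ADAMTS8 4, 0 and 4, so that the added 0.5 CPM weighs on their distances. SOD2 stood at 54.2, 82.8 and 94.5 CPM in CON and 959, 343 and 2143 CPM in LPS. Its LPS value was lowest in replicate 2 and highest in replicate 3, as for S100A8. The choice by profile fixes this shared order in part, and nothing is read from it. SOD2 shares exon bases with 1 other row. By the same measure, ENSSSCG00000006588 ranked 5 among all tested genes at 0.41 and S100A12 ranked 16 at 0.69. S100A10 ranked 3607, S100A6 4307, S100A11 6609 and S100A4 7457. The S100 genes were chosen with these same values known, which fixes their ranks in part, so nothing is read from the ranks.

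Receptors of S100A8 and S100A12 were expressed without a called change. Of 9 receptor genes 7 had a row and 6 were tested, 4 higher and 2 lower, with a median log2 difference of 0.34 beside 0.01 over all genes tested. edgeR called 0 of the 6, with 1 higher and 1 lower at an unadjusted p under 0.05, which 6.18% of all genes tested reached with LPS higher and 6.33% with LPS lower, and DESeq2 and limma-voom called 0. The one higher at that p was CD14, a co-receptor for LPS named after its values were seen, at 518, 818 and 821 CPM in CON and 1354, 805 and 2328 CPM in LPS. LPS replicate 2 lay among the CON libraries, and the log2 difference was 1.06 (SE 0.43; edgeR, Benjamini-Hochberg adjusted p = 0.359). TLR4, named after its values were seen, stood at 10.1, 6.56 and 12.0 CPM in CON and 11.1, 12.4 and 14.5 CPM in LPS, and the groups overlapped. LY96, the co-receptor of TLR4, stood at 2.95, 2.66 and 2.47 CPM in CON and at 2.40, 0.982 and 1.98 CPM in LPS. It was below CON in every LPS library, with a log2 difference of -0.59 (SE 0.49; edgeR, Benjamini-Hochberg adjusted p = 0.661). NPTN, neuroplastin, was also below CON in every LPS library, at a log2 difference of -0.80 (SE 0.31; edgeR, Benjamini-Hochberg adjusted p = 0.349), and shared exon bases with 2 other rows. AGER, named after its values were seen, was at 4.14 CPM in LPS replicate 1 and at most 0.937 CPM in every other library. It was not tested and shared exon bases with 2 other rows.

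Of 17 annexins and other S100 binding partners 16 had a row and 15 were tested, 10 higher and 5 lower, with a median log2 difference of 0.11. edgeR called 0, with 1 higher at an unadjusted p under 0.05 (6.18% of all genes tested), and limma-voom called 0. DESeq2 called 1 (1.85% of all genes called higher). That gene was PLAT, tissue plasminogen activator, whose reaction the complex of S100A10 and annexin A2 promotes at cell surfaces. PLAT stood at 3.31, 4.37 and 3.07 CPM in CON and at 47.1, 14.1 and 342 CPM in LPS, with no overlap and with LPS replicate 3 far above the others. Its log2 difference was 5.24 (SE 1.09; edgeR, Benjamini-Hochberg adjusted p = 0.119). edgeR called it without LPS replicate 2 and without LPS replicate 3, the latter with a lower log2 difference of 3.11. PLG, plasminogen, was below CON in every LPS library, at a log2 difference of -0.48 (SE 0.32; edgeR, Benjamini-Hochberg adjusted p = 0.578), and shared exon bases with 1 other row. ANXA2, annexin A2, named after its values were seen, overlapped between the groups with a log2 difference of 0.20 (SE 0.48), close to the 0.31 of S100A10.

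Of 13 transcription factors linked to the myeloid S100 genes 12 were tested and 12 were higher in LPS, with a median log2 difference of 1.08. edgeR called 0, with 5 higher at an unadjusted p under 0.05 (6.18% of all genes tested), and limma-voom called 0. DESeq2 called 1 (1.85% of all genes called higher). None of the 12 had groups apart, beside 6.52% of all genes tested with LPS higher and 9.8% with LPS lower. Without LPS replicate 2 edgeR called 4 higher, CEBPB, CEBPD, JUNB and ATF3, beside 3.76% of all genes tested in that setting. JUNB, the gene called by DESeq2, named after its values were seen and sharing exon bases with 1 other row, stood at 19.9, 55.3 and 24.9 CPM in CON and at 168, 19.0 and 250 CPM in LPS. For this gene LPS replicate 2 was the lowest of all 6 libraries, just below CON replicate 1. The part of these factors in the levels of the S100A8 cluster was not tested.

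Markers of neutrophils, which carry S100A8 and S100A12, were partly higher in LPS. In bulk tissue, more cells of a type and more RNA per cell cannot be told apart, nor can fewer cells and less RNA per cell. Of 24 neutrophil markers 16 had a row and 10 were tested, 8 higher and 2 lower, with a median log2 difference of 1.23. All LPS libraries were above CON for 4 of the 10 (6.52% of all genes tested). LTF and TREM1, both among these 4, had at most 10 and 9 counts in a CON library and passed the filter through their LPS libraries. A gene near 0 in CON could be tested only if higher in LPS, so these counts depend in part on the filter. edgeR called 0, with 5 higher at an unadjusted p under 0.05 (6.18% of all genes tested), and limma-voom called 0. DESeq2 (1.85% of all genes called higher) called 2 of the 10, CSF3R and LTF. The summed level of the list was 62.5 to 109 CPM in CON and 149 to 229 CPM in LPS, which did not overlap, whereas without CSF3R it was 51.9 to 92.5 and 68.0 to 129 CPM, which did.

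CSF3R, the receptor of granulocyte colony-stimulating factor, stood at 5.90, 10.6 and 16.2 CPM in CON and at 99.0, 46.8 and 100 CPM in LPS. Its log2 difference was 2.91 (SE 0.47; edgeR, Benjamini-Hochberg adjusted p = 0.0668), and edgeR called it without LPS replicate 2, without LPS replicate 3 and with the replicate block. The granule gene LTF, lactoferrin, had a log2 difference of 3.16 (SE 0.98; edgeR, Benjamini-Hochberg adjusted p = 0.247), the receptor TREM1 of 2.21 (SE 0.63; adjusted p = 0.221) and the oxidase subunit NCF1 of 0.63 (SE 0.34; adjusted p = 0.48). LTF had only 3, 0 and 10 counts in CON and 9, 8 and 126 in LPS, so that most of its LPS counts came from replicate 3. The value of LTF was 4.59 without CON replicate 3, and that of TREM1 was 1.40 without LPS replicate 3. The primary granule genes were near 0 in both groups, with MPO at 0.781 to 1.16 CPM in CON and 0.273 to 1.09 CPM in LPS, and BPI at 0 in all libraries but CON replicate 1. MMP8, a protease of secondary granules that did not pass the filter, was at 0 in all CON libraries and at 3.93, 0.818 and 18.5 CPM in LPS. It was called by DESeq2, and by edgeR without the filter or without LPS replicate 2. CXCR1, CXCR2, CTSG, CAMP, FPR1, FPR2, CEACAM8 and FCGR3A had no row under those symbols. The part of neutrophil content in the levels of the cluster was not tested.

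Markers of Kupffer cells and monocytes were mostly lower. Of 18 markers 13 were tested, 1 higher and 12 lower, 3 of them with all LPS libraries below CON (9.8% of all genes tested), with a median log2 difference of -0.48. edgeR called 0, with 3 lower at an unadjusted p under 0.05 (6.33% of all genes tested), and DESeq2 and limma-voom called 0. The summed level of the list was 2060 to 3310 CPM in CON and 1390 to 2360 CPM in LPS, which overlapped. MRC1, the mannose receptor, fell short of a call at a log2 difference of -1.25 (SE 0.39; edgeR, Benjamini-Hochberg adjusted p = 0.253), as did TIMD4 at -1.07 (SE 0.34; adjusted p = 0.263) and VSIG4 at -0.93 (SE 0.33; adjusted p = 0.307). LYZ, lysozyme, which shares exon bases with 1 other row, was listed at 0 in all libraries.

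Markers of cholangiocytes, the epithelial cells of bile ducts, were mostly higher in LPS as well. Of 11 markers 9 were tested, 8 higher and 1 lower, 4 with all LPS libraries above CON (6.52% of all genes tested), with a median log2 difference of 1.46 and a summed level of 495 to 964 CPM in CON against 1170 to 2740 CPM in LPS. edgeR called 0, with 6 higher at an unadjusted p under 0.05 (6.18% of all genes tested), DESeq2 (1.85% of all genes called higher) called 4, KRT7, CLDN4, KRT8 and KRT18, and limma-voom called 0. KRT8, a keratin of simple epithelia, stood at 278, 268 and 514 CPM in CON and at 1228, 677 and 1618 CPM in LPS. Its LPS replicate 3 was highest and replicate 2 lowest, as for S100A8. HBB shared this order, as did KRT18 and SPP1, named after their values were seen. The neutrophil genes CSF3R, LTF, TREM1 and MMP8 shared it as well, whereas NCF1 and the cholangiocyte markers KRT7 and EPCAM did not. CLDN4, a claudin of tight junctions, stood at 50.7, 48.3 and 78.0 CPM in CON and at 440, 143 and 102 CPM in LPS, with replicate 1 highest, and its log2 difference of 1.95 was 1.06 without that library. Of 9 red blood cell and platelet markers 2 were tested and 2 were higher. HBB, the beta chain of hemoglobin, was at 52.5 to 60.0 CPM in CON and 72.6 to 246 CPM in LPS, and DESeq2 called it whereas edgeR and limma-voom did not (edgeR, Benjamini-Hochberg adjusted p = 0.218). HBB shares exon bases with 3 other rows. The part of these cell types in the levels of the S100A8 cluster was not tested.

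**Figure D4:**
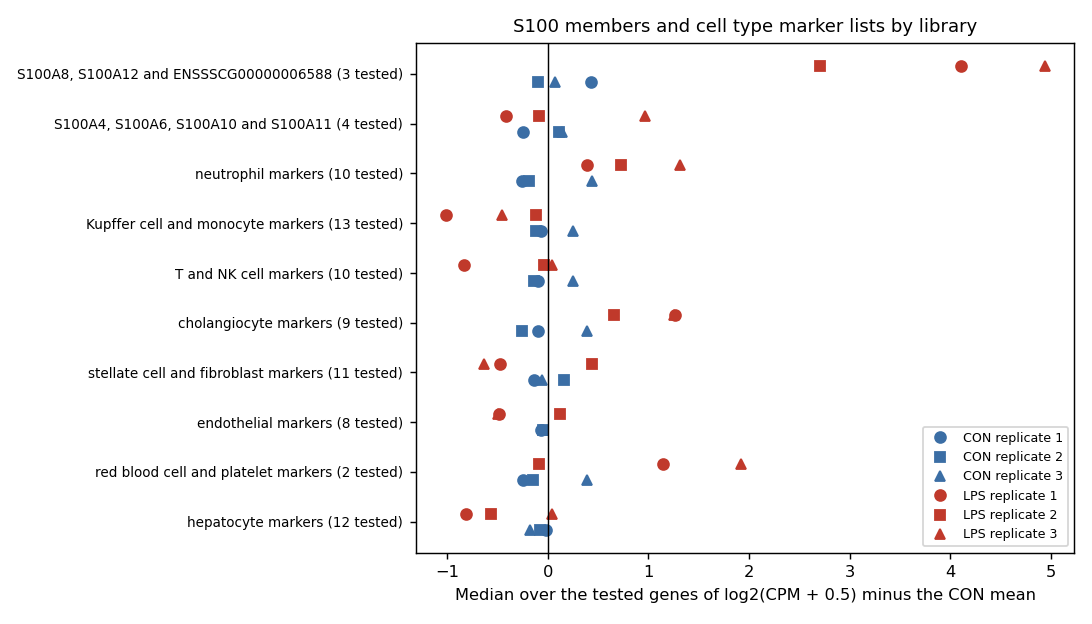
Median over the tested genes of log2(CPM + 0.5) minus its mean in CON, in each of the 3 CON (blue) and 3 LPS (red) libraries, for the S100A8 cluster, the other 4 S100 genes and 8 cell type marker lists. The S100A8 cluster lies at 2.70 to 4.94 in LPS, the cholangiocyte markers at 0.66 to 1.26 and the neutrophil markers at 0.39 to 1.31, the last overlapping a CON library at 0.44.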

How the data were processed

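The authors deposited whole-number read counts per gene, not normalized, for 3 CON and 3 LPS input libraries, with exon positions and a summed exonic length in bases as another column. Per the labels, libraries came from polyadenylated RNA and a strand-specific kit, CON replicates 1 and 2 have more than one sequencing entry but 1 column each, and the submitters' processing notes name cutadapt 1.9.3 and HISAT2. Neither the labels nor the methods name the counting tool, its strand setting or a pig genome build. All 6 sample columns were mapped, and 0 were left unmapped.

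Differences in LPS against CON were fitted over all genes with edgeR 4.0.16 in R 4.3.3 (filterByExpr with a minimum count of 10, TMM scaling, robust quasi-likelihood test, Benjamini-Hochberg adjustment), and a call required an adjusted p under 0.05 and a change above 1.5-fold. The fit was tested on simulated data. Alternatives were other scaling factors, other filters, a block for the replicate number, each library left out, limma-voom (limma 3.58.1) and DESeq2 1.42.0. CPM used TMM-scaled totals, CPM per kb divided by the deposited length, and profiles used log2(CPM + 0.5). Symbols from the reference name table were paired with 15029 of 31908 rows, and 130 of 161 genes in 12 lists had a row.

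The genes named were the 7 S100 genes, other S100 genes with a row, in each list those called and up to 5 with the largest difference among those whose groups did not overlap, cell type markers at 0 throughout, and the 5 tested genes with a symbol nearest to S100A8. Other names were added after their values were seen. The S100 genes and the lists were chosen with earlier results of these data known. Protein and promoter sequences of the S100 genes were not analysed here. Counting intervals cover counting error only.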

Additional observations from a re-analysis of the deposited data

How the results depend on the processing

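The log2 differences of the 7 S100 genes moved by less than the spread between libraries in 86 comparisons with an alternative, although S100A6 was at -0.05 without CON replicate 1, and S100A10 at -0.21 and S100A12 at 3.25 without LPS replicate 3. They moved by more in 1, S100A4, which ranged from -1.10 (without LPS replicate 3) to 0.45 with 1 library left out. The number of S100 genes called, 2 with all libraries, was 0 with limma-voom and 0 to 3 with 1 library left out. It was also 0 with at least 10 counts required in every library, where no gene of the S100A8 cluster was tested and none could be called. Of the receptors, partners and transcription factors 0 were called, against 6 without the filter, 2 with DESeq2 and 0 to 5 with 1 library left out. Of the cell type markers 0 were called, against 15 without the filter, 9 with DESeq2, 1 (CSF3R) with the replicate block and 0 to 15 with 1 library left out, the most without LPS replicate 2. Over all genes, 2.28% were called higher without the filter and 1.85% with DESeq2. The share was 0.329% with the replicate block and 3.76% without LPS replicate 2. Numbers tested per list are given with each list for the main fit, and nothing is read from the list counts. In both directions, edgeR called 7 of 12774 genes, against 885 of 23529 without the filter and 416 of 14829 with DESeq2. Of 12774 genes, 9 were called with relative log expression factors, 12 with total counts, 6 with limma-voom and 51 with the replicate block. Without LPS replicate 2 edgeR called 982 of 13632, and without LPS replicate 3 58 of 12593. Without LPS replicate 1 it called 1 of 13638, and 0 with any CON library left out. Total counts moved the median log2 difference of all genes from 0.01 to -0.12. The log2 differences of S100A1 and of the list genes named by the rules above reversed in 0 of their comparisons, stayed on the same side of the threshold in 276 and passed it in 31. Genes named after their values were seen, such as ANXA2 and JUNB, and the genes nearest to S100A8 in profile were not in these comparisons. With the replicate block 3 S100 genes were called. Deviations of same-numbered libraries from their group means correlated at -0.239, 0.219 and 0.0289, and only LPS replicate 2 correlated best with its own number. With 3 libraries per group, these values cannot show whether same-numbered libraries were paired. With 2 to 15 counts of S100A8 and ENSSSCG00000006588 per CON library, depth limits the precision of their CON levels.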

Other observations

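Markers of other liver cells showed no called gene in edgeR with all 6 libraries. Of all genes tested, 6.18% were higher and 6.33% lower at an unadjusted p under 0.05 in edgeR, and DESeq2 called 1.85% higher. All LPS libraries were above CON for 6.52% of all genes tested and below CON for 9.8%. Of 13 T and NK cell markers 10 were tested, 2 higher and 8 lower, with a median log2 difference of -0.20, 1 at an unadjusted p under 0.05 and 0 called by DESeq2 or limma-voom. CD4 stood at 12.7, 13 and 16.7 CPM in CON and at 3.49, 8.34 and 5.39 CPM in LPS, and CD2 at 41.8, 37.0 and 53.1 CPM in CON and at 13.1, 28.1 and 36.9 CPM in LPS. Both were below CON in every LPS library, and CD4 shares exon bases with 1 other row. Of 12 stellate cell and fibroblast markers 11 were tested, 5 higher and 6 lower, with a median of -0.11, 2 at an unadjusted p under 0.05 and 0 called by DESeq2 or limma-voom. TAGLN, an actin-binding protein of contractile cells, was the one with all LPS libraries above CON, at 41.1, 15.8 and 78.7 CPM in CON and 111, 115 and 190 CPM in LPS, with a log2 difference of 1.62 that was 2.31 without CON replicate 3. Of 10 endothelial markers 8 were tested, 2 higher and 6 lower, with a median of -0.46, 3 at an unadjusted p under 0.05 and 0 called by DESeq2 or limma-voom. LYVE1, a hyaluronan receptor of liver sinusoids, went the other way, at 10.1, 10.8 and 16.3 CPM in CON and 20.1, 19.5 and 43.2 CPM in LPS.

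Hepatocyte markers, of which 12 were tested, were higher for 4 and lower for 8, with a median log2 difference of -0.31, 2 at an unadjusted p under 0.05, 1 called by DESeq2 and 0 by limma-voom. Their summed level was 76600 to 99900 CPM in CON and 64300 to 131000 CPM in LPS. FGB, the fibrinogen beta chain called by DESeq2, stood at 12720, 8098 and 9054 CPM in CON and at 21940, 14560 and 44960 CPM in LPS. ALB, albumin, was below CON in every LPS library at a log2 difference of -0.76 (SE 0.38), and ASGR1, an asialoglycoprotein receptor chain, at -1.03 (SE 0.33), neither called (edgeR, Benjamini-Hochberg adjusted p = 0.461 and 0.257). The part of these cell types in the levels of the S100 genes was not tested.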
